A study of Arabidopsis thaliana with 2 samples.

Results

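Intergenic transcripts are assembled transcripts that the assembler's class code places outside annotated genes. Here they were the transcripts that carry the intergenic code u on chromosomes 1 to 5 of a merged transcript set from Arabidopsis thaliana siliques, the seed pods. Grouped by the locus identifier of the set, 335 such transcripts of 52608 transcripts in all formed 290 loci of 32758 loci in all. The labelled libraries are 2 libraries from siliques of ago3-3 plants in the Col-0 ecotype, collected 1 to 5 days after pollination from soil-grown plants under long days. The mutation affects AGO3, a member of the ARGONAUTE family of small-RNA-binding proteins. Total RNA was depleted of ribosomal RNA and sequenced so that the strand of each transcript was kept. The series design also names wild-type siliques in duplicate, whose libraries were not analysed here. The merged set holds no value per library, so a transcript may come from wild type, ago3-3 or both, and no replicate error, expression level or comparison of genotypes could be computed. The depth of the libraries is unknown, and whether the targeted gene had changed could not be checked from transcript models.

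Annotated genes below are the 33265 nuclear genes whose annotated transcripts, of class =, the set carries over. Intervals in brackets are exact 95% binomial (Clopper-Pearson) intervals, which cover counting over loci only and not the spread between plants. Loci are not replicates, and no test was made.

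Plant genomes are transcribed outside annotated genes as well as inside them. Such transcripts include long non-coding RNAs, antisense and promoter-linked RNAs, relatives of transposable elements, extra copies of small nuclear RNA genes, and coding genes or gene ends that an annotation lacks. Whether an unannotated transcript starts back to back with a gene (divergent), ends towards a gene (convergent) or lies on the same strand before or after it is a usual way to describe it, because neighbours of each kind can share a promoter region, a terminator region or one primary transcript.

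Several of the loci had close copies, and the sequences that show this come first. Sequences here are from the TAIR10.1 reference, 5' to 3' on the strand of the transcript. In the first pair, XLOC_015805 (chr3:16308246-16311760, plus strand) and XLOC_002375 (chr1:17580275-17585600, plus strand) were among the loci with the most isoforms and the most exons, and they aligned at 93.1% identity over 679 nt. The 90 aligned bases below hold 4 differences, in capitals.
XLOC_015805: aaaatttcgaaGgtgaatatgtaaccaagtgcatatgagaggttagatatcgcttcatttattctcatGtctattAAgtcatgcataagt
XLOC_002375: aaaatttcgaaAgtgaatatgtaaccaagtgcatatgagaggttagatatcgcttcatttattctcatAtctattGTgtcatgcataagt
The next pair comes from the longest of the loci with 10 or more exons, XLOC_030123 (chr5:8955867-8963863, minus strand), and from XLOC_027123 (chr5:15025815-15029251, plus strand), which aligned at 91.9% over 1148 nt. In these 90 bases 2 differed, again in capitals.
XLOC_030123: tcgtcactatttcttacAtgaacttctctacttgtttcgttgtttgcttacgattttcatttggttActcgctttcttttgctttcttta
XLOC_027123: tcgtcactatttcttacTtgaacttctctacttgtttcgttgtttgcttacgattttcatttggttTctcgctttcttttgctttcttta

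Other loci were copies of annotated genes elsewhere. XLOC_031474 (chr5:19885609-19885731, minus strand) is a single exon of 123 nt whose whole length aligned to U4.2 (AT3G06900), a gene for U4 small nuclear RNA, a part of the spliceosome. The identity was 98.4%, with 2 differences in capitals.
XLOC_031474: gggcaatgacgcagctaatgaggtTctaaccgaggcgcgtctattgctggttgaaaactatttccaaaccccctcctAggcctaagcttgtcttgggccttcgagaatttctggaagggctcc
U4.2: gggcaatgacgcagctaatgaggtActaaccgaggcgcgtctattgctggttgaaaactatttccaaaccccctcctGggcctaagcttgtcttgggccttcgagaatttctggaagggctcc
XLOC_006636 (chr1:19317450-19318854, minus strand) had the longest open reading frame of the loci and matched the F-box gene AT1G71320 at 91.4% over 876 nt. F-box proteins are the substrate-binding parts of a class of ubiquitin ligases. The 90 aligned bases below hold 9 differences, in capitals.
XLOC_006636: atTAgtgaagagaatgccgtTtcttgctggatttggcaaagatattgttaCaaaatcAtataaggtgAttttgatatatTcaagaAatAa
AT1G71320: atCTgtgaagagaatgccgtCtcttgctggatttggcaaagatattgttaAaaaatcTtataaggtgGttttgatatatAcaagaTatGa
The shortest locus of all, XLOC_023182 (chr4:4011578-4011695, minus strand, 118 nt), belonged to the largest family of loci and is set beside its relative XLOC_026758 (chr5:11734729-11735022, plus strand). They aligned at 92.3% over 117 nt, and 3 of these 70 bases differ, in capitals.
XLOC_023182: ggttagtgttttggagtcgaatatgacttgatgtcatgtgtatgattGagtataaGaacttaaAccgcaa
XLOC_026758: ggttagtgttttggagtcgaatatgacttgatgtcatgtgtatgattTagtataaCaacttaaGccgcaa

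The splice sites of the exon-rich loci are shown because the identity of a spliced transcript rests on them. Each run has 30 bases around one end of the longest intron of the locus, with the first or last 2 intron bases in capitals.
XLOC_001740 donor: gcagtttcagGTatattattccactacagt
XLOC_001740 acceptor: catagaatatatgtcatcAGatagtaggaa
XLOC_030123 donor: tttctacaagGTatcatctcgagtcactag
XLOC_030123 acceptor: ttgcaatttcttgcaaccAGtttctgaagc
XLOC_027191 donor: agacaaaaagGTaacatatagttttgacat
XLOC_027191 acceptor: tttgattgggattttcgcAGgctcgagcgg
These introns are 1100, 1030 and 255 bp long, and each starts with GT and ends with AG, the bases of the major class of introns.

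The sequences between back-to-back starts are shown for the tightest divergent pairs, on the strand of the intergenic locus, with no part marked. Gene starts are those of the annotation used by the authors.
XLOC_014229, chr3:4281477-4281513: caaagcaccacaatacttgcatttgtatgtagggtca
XLOC_026371, chr5:8443835-8443885: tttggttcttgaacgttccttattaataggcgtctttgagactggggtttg
XLOC_000398, chr1:2751279-2751333: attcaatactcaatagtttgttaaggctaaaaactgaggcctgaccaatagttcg
The genes on the other side are the pseudogene AT3G13250, LSU2 and CJD1. None of these windows holds the letters TATAAA on either strand. Their GC content was between 36.4% and 41.2%.

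Most of the loci were short and unspliced. Of the 290 loci, 191 had 1 exon and 99 had several exons (34.1%, 28.7 to 39.9), against 67.5% of annotated genes with several exons. Of the spliced loci, 61 had 2 exons at most, 38 had 3 or more, and 9 had 10 or more. The most exons, 15, were found at XLOC_002375, followed by XLOC_030123 and XLOC_027191 with 13 each and XLOC_020817 with 11. XLOC_027191 (chr5:15517824-15521211, plus strand) lay 1438 bp upstream of AT5G38750 and 3518 bp divergent from AGL77, a MADS-box gene.

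Alternative isoforms were found only at spliced loci. One isoform was assembled at 268 loci, 2 isoforms at 11, 3 at 5, and 4 to 6 isoforms at the other 6 loci. The 22 loci with 2 or more isoforms made up 22.2% of the spliced loci. XLOC_015805 and XLOC_001740 (chr1:11778190-11781879, plus strand) had 6 intergenic isoforms each, and XLOC_002375 and XLOC_018312 (chr3:10033888-10036433, minus strand) had 5. The locus identifiers of XLOC_015805 and XLOC_001740 are also carried by transcripts of other classes (j and = at XLOC_015805, o at XLOC_001740), as at 9 of the 290 loci, so their intergenic transcripts share a locus with annotated or overlapping ones. The isoforms differed in exon number at 14 of the 22 loci and had equal exon numbers at 8. There were 6 to 10 exons at XLOC_015805, 8 to 10 at XLOC_001740, 11 to 15 at XLOC_002375 and 6 to 10 at XLOC_018312.

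The spliced length of the longest isoform had a median of 628 nt over the loci (quartiles 426.8 and 869.5, range 118 to 5236), against 1334 nt for annotated genes. It was 648 nt for spliced loci and 626 nt for single-exon loci. The longest was XLOC_029586 (chr5:5040931-5047018, minus strand) with 5 exons, which ended 90 bp from the end of AT5G15530. XLOC_030123 followed with 4991 nt and XLOC_020987 (chr4:6664101-6670182, plus strand) with 4156 nt. Among unspliced loci the longest were XLOC_026757 with 2659 nt, XLOC_006136 with 2277 nt, XLOC_013201 with 2098 nt, XLOC_008644 with 1847 nt and XLOC_021221 with 1822 nt. XLOC_006136 lay 2047 bp upstream of the pseudogene AT1G37999, XLOC_013201 lay 1162 bp divergent from AT2G40720, and XLOC_008644 lay 111 bp upstream of the pseudogene AT2G07685.

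**Figure D1:**
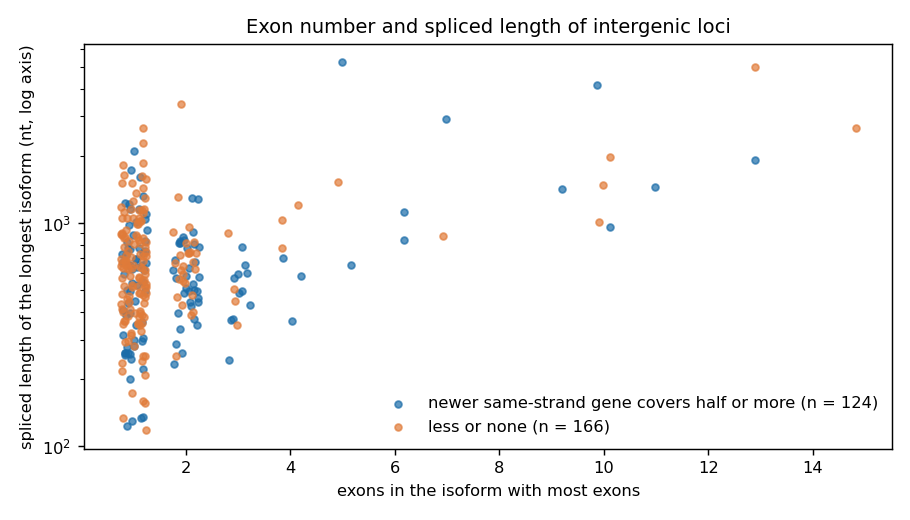
Each point is an intergenic locus, with the exon number of its most exon-rich isoform on the horizontal axis (points spread sideways) and the spliced length of its longest isoform in nt on a log axis. Colours separate the 124 loci of which a same-strand gene of the newer annotation covers at least 50% from the other 166. The 191 single-exon loci run from 118 to 2659 nt, and the 9 loci with 10 or more exons lie on the right.

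The introns of these loci had the usual splice sites. Of 295 distinct introns, 288 had GT-AG ends (97.6%, 95.2 to 99), against 98.8% of 127854 annotated introns. Another 4 had GC-AG ends and 1 had AT-AC ends, which are the known rarer kinds. The remaining 2 were a TA-AG intron at XLOC_020817 and an AA-AG intron at XLOC_027191. No intron had CT-AC ends, which is GT-AG read from the wrong strand (0 of 295, with an upper bound of 1.24%). The newer annotation holds 130 of the introns (44.1%), and of the 165 that it lacks 158 had GT-AG ends (95.8%, 91.5 to 98.3). TopHat2, the aligner used, favours introns with these known ends, so the shares are partly set by the alignment. The shares are therefore not independent evidence that the introns or their strands are real. The introns had a median length of 126 bp (67 to 1154), against 100 bp for annotated introns. Their GC content had a median of 30.28%, against 32.76%. The longest introns were those of XLOC_032253 (1154 bp), XLOC_001740 (1100 bp), XLOC_030123 (1030 bp), XLOC_020987 (987 bp) and XLOC_008486 (856 bp). XLOC_032253 lay 565 bp downstream of AT5G63630 on the same strand, and XLOC_008486 lay 1597 bp upstream of the pseudogene AT2G05680.

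The loci lay in the longer stretches between genes. Sequence between annotated genes came in 30959 intervals with a median length of 913 bp, and the 255 intervals with a locus had a median length of 4044 bp. The share of intervals with a locus was 0.0099% below 500 bp (1 of 10097), 1.58% between 2000 and 4000 bp (80 of 5065), and 7.9% at 8000 bp or more (35 of 443, 5.56 to 10.8). Per Mb of intergenic sequence there were 5.97 loci between divergent genes, 6.16 between genes on the same strand, and 4.92 between convergent genes. All loci but XLOC_000433, described below, lay clear of annotated exons, and short intervals have less room for such a locus.

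**Figure D2:**
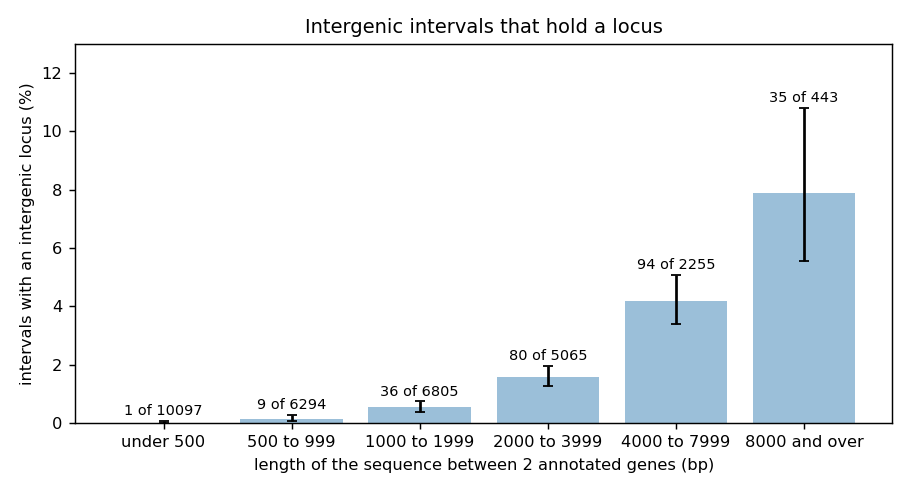
Bars give the percentage of intervals between annotated genes that hold at least 1 intergenic locus, by interval length in bp, with exact 95% intervals and the counts above. The share was 0.0099% in the shortest class and 7.9% in the longest class.

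Nearest genes lay in every orientation. The nearest gene was divergent for 78 loci (26.9%, 21.9 to 32.4), against 15.9% of annotated genes whose nearest gene was divergent. It was convergent for 88 loci (30.3%, 25.1 to 36), against 35.9% of annotated genes. The locus lay upstream of its nearest gene on the same strand in 91 cases (31.4%, 26.1 to 37.1), against 27.9% of annotated genes, and downstream of it in 33 cases (11.4%, 7.96 to 15.6), against 20.2%. The shares of annotated genes include genes that overlap another gene, and how much this moves them was not tested. The downstream share differed with splicing. It was 6.28% for single-exon loci (12 of 191) and 21.2% for spliced loci (21 of 99). The intergenic code may leave out transcripts close behind a gene, as described below. That would lower the downstream share and raise the others, which was not tested. Genes that the newer annotation types as lncRNA (long non-coding RNA), classed in the same way against annotated genes, were divergent in 41.1% of 3256 cases, convergent in 29.2%, upstream in 16.3% and downstream in 13.5%. These genes can touch or overlap annotated genes, which of the loci only XLOC_000433 did. Among the 2374 that lay clear of annotated genes (72.9%), the shares were 33.5% divergent, 27.5% convergent, 21.7% upstream and 17.2% downstream.

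**Figure D3:**
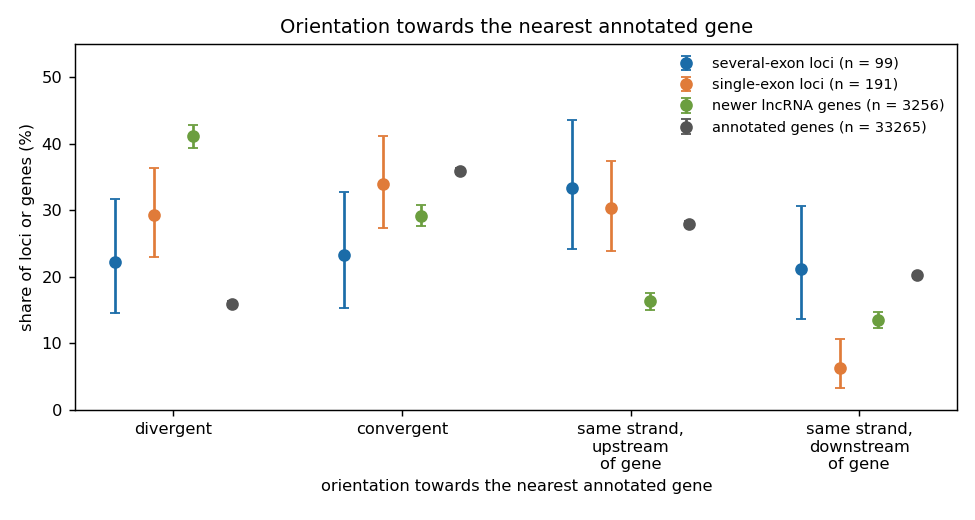
Points give the percentage of several-exon loci, single-exon loci, all 3256 newer long non-coding RNA (lncRNA) genes and annotated genes whose nearest annotated gene has each orientation, with exact 95% intervals. Single-exon loci reach 6.28% downstream of a same-strand gene, below the 21.2% of several-exon loci and the 20.2% of annotated genes. The intergenic code may leave out transcripts close behind a gene, which was not tested. Annotated genes that overlap another gene are included.

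The loci stood somewhat farther from genes than genes from each other. The gap to the nearest gene had a median of 617.5 bp (quartiles 267 and 1543, range 0 to 9642), against 375 bp for annotated genes. Annotated genes that overlap another gene count here with a gap of 0, while of the loci only XLOC_000433 overlapped a gene. How much of the difference comes from this was not tested. The nearest gene was within 500 bp for 126 loci (43.4%) and within 1000 bp for 184 loci (63.4%), against 58% and 77.7% of annotated genes. The median gap was 623.5 bp for divergent neighbours, 410 bp for convergent ones, 827 bp where the locus lay upstream on the same strand and 1332 bp where it lay downstream.

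One kind of neighbour was almost missing at short range. Counting the genes on both sides of each locus, single-exon loci had a same-strand gene on their 5' side in 54 cases, and the gap was under 2000 bp in 1 of them. The counts were 30 for gaps of 2000 to 4000 bp and 23 for larger gaps. The exception was XLOC_030030 (chr5:8176084-8177590, minus strand, 1507 nt), 110 bp downstream of AT5G24155, and the next smallest gaps were 2030 bp at XLOC_005844, downstream of the cellulose synthase-like gene CSLD6, and 2086 bp at XLOC_007026, downstream of the RNA helicase gene EMB3108. On their 3' side, 56 of 94 single-exon loci with a same-strand gene had it within 2000 bp (59.6%). Spliced loci showed no such edge, with 36 of 50 gaps under 2000 bp downstream of a gene (72%) and 42 of 68 upstream of one (61.8%). Neither did single-exon loci with opposite-strand neighbours, where 94 of 136 divergent gaps and 80 of 97 convergent gaps were under 2000 bp. The limit of 2000 bp was chosen after these gaps were seen and with the assembler's documented codes in mind. The comparison tool of Cufflinks has a separate code for possible run-on fragments close behind a gene, and no transcript of the deposited set carries that code. Whether such fragments were removed before deposit was not tested.

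**Figure D4:**
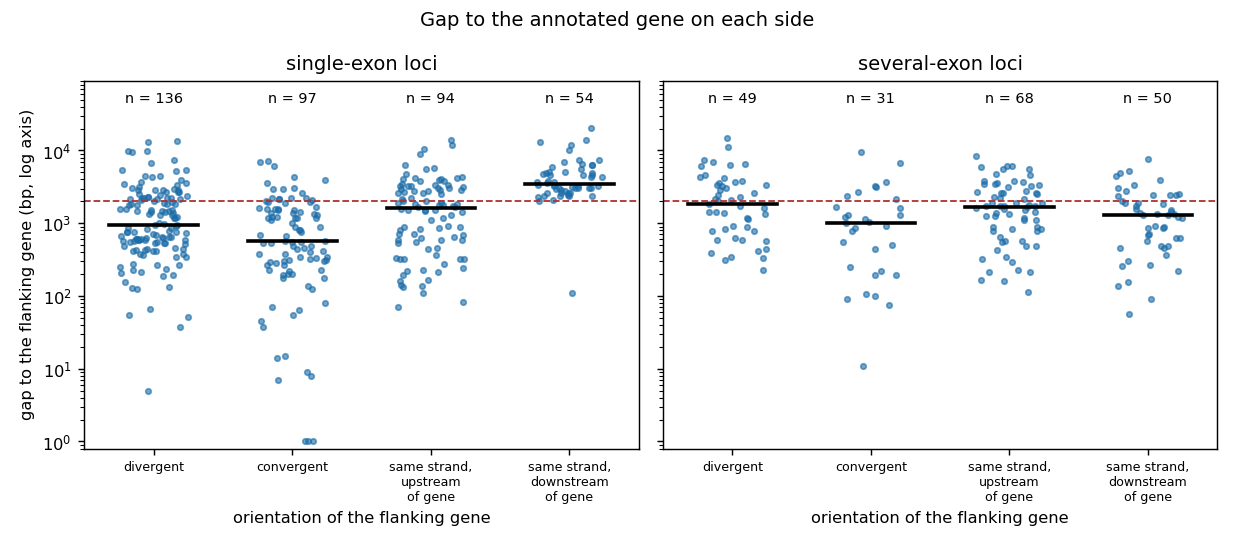
Each point is a gap in bp (log axis, gaps of 0 drawn at 1) between an intergenic locus and the annotated gene on one side, by orientation, for single-exon loci (left) and several-exon loci (right). Thick lines are medians and the dashed line marks 2000 bp. Single-exon loci downstream of a same-strand gene have 1 of 54 gaps below the line, while the several-exon loci have 36 of 50.

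The strand of loci between tandem genes followed the same split. Of 163 loci between genes that share a strand, 70 lay on that strand (42.9%, 35.2 to 50.9). The share was 67.9% for spliced loci (36 of 53, 53.7 to 80.1) and 30.9% for single-exon loci (34 of 110, 22.4 to 40.4). A locus on the strand of both genes has a same-strand gene on its 5' side. The near absence of short gaps of that kind at single-exon loci therefore enters the share of 30.9%.

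The tightest divergent pairs were single-exon loci. XLOC_016309 (chr3:19913039-19913514, plus strand, 476 nt) started 5 bp from AT3G53730, a histone gene, and ended 192 bp from the end of the ribosomal protein gene AT3G53740. XLOC_014229 (1152 nt) started 37 bp from the pseudogene AT3G13250. XLOC_026371 (804 nt) started 51 bp from LSU2, a gene named for its response to low sulfur. XLOC_000398 (236 nt) started 55 bp from CJD1, which encodes a chloroplast protein with a J-like domain, and lay 584 bp upstream of PPCK1, the kinase of phosphoenolpyruvate carboxylase. The windows printed for these pairs run from start to start in the annotation used by the authors, except at XLOC_016309, where only 5 bases lie between. In the newer annotation CJD1 overlaps XLOC_000398 and AT3G53730 overlaps XLOC_016309 on the opposite strand. The gaps of these pairs therefore depend on the older gene starts.

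The tightest convergent pairs met at or next to the gene end. XLOC_000433 (chr1:2977277-2977756, plus strand) overlapped the last exon of AT1G09230 by 35 bp on the opposite strand, which encodes an RNA-binding protein, the only such overlap among the 290 loci in the authors' set, and lay 526 bp divergent from the calreticulin gene CRT1b. XLOC_020998 ended 1 bp from TBL23, of the TRICHOME BIREFRINGENCE-LIKE family, and XLOC_021380 ended 1 bp from RABB1C, a RAB GTPase gene. In the newer annotation TBL23 and RABB1C overlap these loci on the opposite strand. The gaps of 1 bp therefore depend on the gene ends of the annotation used by the authors. The gap was 7 bp between XLOC_024161 and AT4G22050, an aspartyl protease gene, and 8 bp between XLOC_006396 and AT1G47570, a gene for a RING/U-box protein. Each of these loci had 1 exon.

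On the same strand, the closest loci behind a gene were spliced apart from XLOC_030030. XLOC_009720 (2 exons) began 57 bp behind AT2G26511, XLOC_025712 (2 exons) 92 bp behind AT5G11090, XLOC_020987 (10 exons) 136 bp behind AT4G10845, and XLOC_019165 (3 exons) 154 bp behind the non-coding gene AT3G46614. The newer annotation lacks AT2G26511 and AT4G10845, and its added gene AT2G26515 covers 100% of XLOC_009720. It also extends AT3G46614 over 100% of XLOC_019165. The gaps at XLOC_009720, XLOC_020987 and XLOC_019165 therefore depend on the annotation used by the authors. The identifier of XLOC_020987 is also carried by transcripts of classes j and =. The closest loci ahead of a gene were XLOC_012778 at 71 bp from the permease gene AT2G33260, XLOC_004543 at 83 bp from the ankyrin repeat gene AT1G07710, and XLOC_008644 at 111 bp. XLOC_001695 followed at 114 bp from the kinase family gene AT1G31910 and XLOC_002845 at 131 bp from AT1G56000, an oxidoreductase gene.

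The most isolated loci lay on chromosomes 2 to 5. XLOC_027121 was 9642 bp and XLOC_027122 was 7130 bp from the nearest gene, in both cases the tRNA gene AT5G37795. XLOC_023181 lay 7391 bp from the pseudogene AT4G06718, XLOC_011657 lay 6303 bp from AT2G14110, and XLOC_014862 lay 5975 bp from AT3G23370. Of the 290 loci, 284 had a gene within 5000 bp (97.9%).

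Some loci shared an interval. The 27 intervals with 2 or more loci held 60 loci (20.7%), and their neighbours formed 33 adjacent pairs, of which 27 lay on the same strand with a median gap of 754 bp. Separate loci of 1 interval may be pieces of 1 transcript, which was not tested. XLOC_005937 and XLOC_005938, 106 bp apart on the minus strand, both lay in full inside the newer gene AT1G09185. They are counted as separate loci throughout. The fullest interval, 13081 bp between AT3G23370 and RIC5, held 4 single-exon loci on the plus strand, XLOC_014861 to XLOC_014864. In 5 intervals a pair of loci on opposite strands overlapped, by 351 to 769 bp. The longest overlap, 769 bp, was between XLOC_006971 and XLOC_002999, and XLOC_005826 lay in full within XLOC_001695 over 701 bp.

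A newer annotation of the same build named many of the loci. A gene of the newer annotation lay on the same strand at 165 loci (56.9%, 51 to 62.7) and covered at least 50% of the locus at 124 (42.8%). The share was 73.7% for spliced loci and 48.2% for single-exon loci. At 32 further loci the newer gene lay on the opposite strand alone, and 93 loci had no newer gene on either strand. By the gene with the largest overlap, 152 loci overlapped genes added since the annotation used by the authors. Of these loci, 58 overlapped an lncRNA gene, 49 a protein-coding gene, 38 a gene of another RNA (misc_RNA), 4 an snoRNA gene, 2 an snRNA gene and 1 a pseudogene. Any overlap on the same strand was counted. At least 50% of the locus was covered at 34 of the 58 lncRNA loci and at 36 of the 38 misc_RNA loci. The snoRNA genes covered less, such as 8.41% of XLOC_006396 and 10.9% of XLOC_015210. The loci met 75 of the 3256 newer lncRNA genes (2.3%).

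The other 13 loci overlapped annotated genes that the newer annotation had extended. Of these loci, 11 lay upstream of the older span of the extended gene on its strand, 9 of them with 1 exon. One was XLOC_028458 (chr5:24305469-24305964, plus strand, 496 nt), which began ahead of AGL62 and ended 329 bp before its annotated start. AGL62 is a MADS-box gene known for its role in early endosperm development. All of XLOC_028458 lay inside the newer AGL62 gene. XLOC_012778 and XLOC_004543, named above, were likewise covered in full by the extended AT2G33260 and AT1G07710. At XLOC_001695 the extended AT1G31910 covered 6.05% of the locus.

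Of the 49 loci that overlapped added protein-coding genes, 11 overlapped genes with a product name, and the other genes are listed as uncharacterized proteins. XLOC_016859 was covered to 92.5% by AT3G01415, a tubulin-tyrosine ligase gene, XLOC_031654 to 93.8% by AT5G52155, whose product resembles the ubiquitin ligase BIG BROTHER, and XLOC_020817 to 87.8% by AT4G08535, an F-box SKIP17-like gene. XLOC_018312 was covered to 49.6% by AT3G27185, annotated as cyclin B1, a class of cell-cycle regulators. Coverage was 100% at XLOC_025062 by AT4G38213, a second tubulin-tyrosine ligase gene, 96.1% at XLOC_022063 by AT4G29037 of the self-incompatibility S1 family, and 95.1% at XLOC_025017 by the MADS-box-like gene AT4G37435. It was 94.4% at XLOC_021334 by AT4G16233, a GDSL lipase gene, and 90.2% at XLOC_023789 by AT4G15562, whose product resembles the copper chaperone of superoxide dismutase. The nuclease gene AT3G29631 covered 63.6% of XLOC_018501, and AT3G58585, a gene for a PPR protein, covered 53.7% of XLOC_016558. These product names are those of the newer genes and do not show an intact frame in the locus. In the longest isoform, the longest frame was 43 codons at XLOC_018312, 49 at XLOC_021334 and 76 at XLOC_018501. It was 164 codons at XLOC_020817 and 183 at XLOC_016859. Another isoform of XLOC_018312 had a frame of 85 codons. At XLOC_020987 the gene with the largest overlap was the misc_RNA gene AT4G02885, with 68.2%.

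Long open reading frames were uncommon. The longest frame from ATG to stop in the longest isoform had a median of 43 codons, against 309 in annotated genes. It reached 100 codons at 23 loci (7.93%, 5.09 to 11.7), against 85.3% of annotated genes and 1.5% of newer lncRNA genes. Of these 23 loci, 17 were spliced (17.2% of spliced loci, against 3.14% of single-exon loci). At 11 of the 23 a newer protein-coding gene lay on the same strand, and 10 had no newer gene there. XLOC_006636 (2 exons, 1301 nt) had the longest frame, 408 codons, and no newer gene on its strand. It lay 2533 bp upstream of AT1G51970, a B3 domain gene, and 4527 bp downstream of AT1G51980, a peptidase gene. XLOC_005782 followed with 248 codons and was covered to 92.9% by the added gene AT1G31255, of unknown product. XLOC_022183 (chr4:15209864-15210751, plus strand, 2 exons, 816 nt) had 237 codons, no newer gene on its strand and no annotated match elsewhere, and lay 262 bp downstream of AT4G31340. XLOC_016859 had 183 codons and XLOC_031654 had 182.

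The loci were poorer in G and C than genes. The median GC content was 36.1% (range 23.41 to 56.32), against 42.11% in annotated genes and 37.99% in newer lncRNA genes. The GC content of 239 of the 290 loci was below the lower quartile of annotated genes, 40.24%. Spliced and single-exon loci had nearly the same median, 36.12% and 36.08%. The reference marks repeats and simple sequence in lower case, and the median masked share was 21.1% in loci, against 8.277% in annotated genes. At least 50% of the bases were masked in 12 loci (4.14%), all with 1 exon, against 1.18% of annotated genes.

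**Figure D5:**
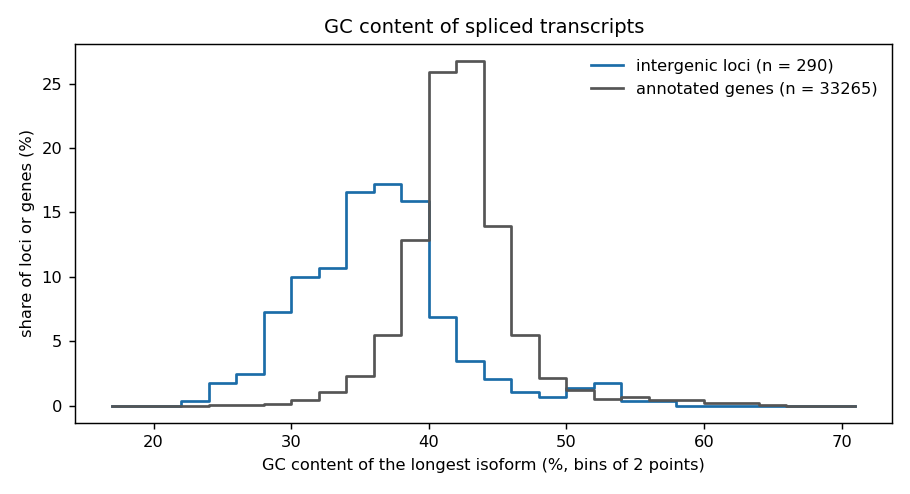
Lines give the percentage of intergenic loci and of annotated genes in bins of GC content of the longest spliced isoform. The loci have a median of 36.1% and the annotated genes a median of 42.11%.

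Core motif letters stood at a minority of loci and of genes. The letters TATAAA, searched on the transcript strand in the 60 bases before the start, were found at 51 loci (17.6%, 13.4 to 22.5), against 12.6% of annotated genes and 14.3% of protein-coding ones. The letters AATAAA in the last 50 bases, also on the transcript strand, were found at 26 loci (8.97%, 5.94 to 12.9), against 8.49% of annotated genes. They were found at 14.1% of spliced loci and 6.28% of single-exon loci. The loci are richer in A and T, and a match says only that these letters are there.

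Part of the loci had relatives among annotated genes. A match (blastn, E-value of at most 1e-10) to an annotated nuclear transcript elsewhere was found for 81 loci (27.9%, 22.8 to 33.5), with a median identity of 91.44% over a median of 219 nt (44 to 1121). A match over at least 0.5 of the spliced length was found for 10.3% of the loci. The best match was a protein-coding gene for 40 loci, a pseudogene for 21, a transcribed pseudogene for 7, a non-coding RNA gene for 7, an snRNA gene for 3, and a gene of another type for the rest. The match ran along the strand of the gene in 64 of 81 cases, and in 3 it was a flanking gene.

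The small nuclear RNA relatives were short single exons. XLOC_008305 (chr2:849792-850053, plus strand, 262 nt) and XLOC_008306 (chr2:852872-853072, plus strand, 201 nt) aligned to U2.3, a gene for the spliceosomal U2 snRNA, at 98.4% over 185 and 187 nt. They aligned to each other at 97.5% over 200 nt, and GSTF3, a glutathione S-transferase gene, lies between them. The newer annotation has an snRNA gene at XLOC_008305 and an lncRNA gene at XLOC_008306. XLOC_031474, the U4 relative printed above, lay 766 bp divergent from AT5G49060 inside the newer lncRNA gene AT5G07325. XLOC_021221 held 127 nt identical to SNOR37-2, a small nucleolar RNA gene.

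Relatives among the loci themselves formed families. Of the 290 loci, 43 matched another locus at a different position (14.8%), in 15 families of 2 to 8 loci. The family of 8 lay on chromosomes 4 and 5, had 1 exon at each locus, was masked over 94.9% to 100% of its bases, and matched the pseudogenes AT5G31702 or AT2G10600. It includes XLOC_026757, the longest single-exon locus, and XLOC_023182, the shortest locus. A family of 5 joined the exon-rich XLOC_020987 and XLOC_030123 with the neighbouring loci XLOC_027121, XLOC_027122 and XLOC_027123. A family of 3 held XLOC_015805, XLOC_002375 and XLOC_019167, and another held XLOC_005937, XLOC_005938 and XLOC_018312. In that family XLOC_018312 matched the cyclin gene CYCB1;5 at 95.6% over 181 nt and XLOC_005938 matched it at 97.8% over 136 nt. All 8 loci of the masked family were unspliced, while 10 of the 11 loci of the families of 5 and 3 just named were spliced. Other families of 3 were unspliced throughout. These were XLOC_012298, XLOC_018669 and XLOC_018713, and XLOC_014861, XLOC_014862 and XLOC_014863. Over all families, 21 of the 43 loci had 1 exon.

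Most flanking genes were protein-coding, with a somewhat larger share of pseudogenes than among annotated genes. On both sides together, 509 genes flanked a locus, which is 1.53% of annotated genes. Of these 509 genes, 78.8% were protein-coding, 13.4% pseudogenes and 3.93% transcribed pseudogenes, against 80.2%, 11.8% and 2.78% of annotated genes. The nearest gene was protein-coding for 214 loci (73.8%), against 80.2% of annotated genes, a pseudogene for 48 (16.6%), against 11.8%, and a transcribed pseudogene for 14 (4.83%), against 2.78%. By product name, protein kinases made up 4.52% of flanking genes, against 4.12% of annotated genes, F-box proteins 2.16%, against 1.89%, transcription factors 1.38%, against 1.1%, and ribosomal proteins 0.786%, against 1.03%. No AGO gene of the 9 matched by symbol flanked a locus. Neither did any of 16 genes of small RNA pathways or of 17 genes of ovule, seed coat and fruit development (AGO8, HST, SEP1 and SEP2 were not matched). Of 15 regulators of embryo and endosperm, 2 flanked a locus. These were AGL62 and FUS3, a regulator of seed maturation, which XLOC_018275 preceded by 4242 bp on the same strand.

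MicroRNA precursor genes flanked 4 loci. They were 4 of 177 annotated miRNA genes and 0.786% of the 509 flanking genes, against 0.532% of annotated genes, which is close to the background. XLOC_031029 (chr5:16660784-16660957, minus strand, 174 nt) ended 143 bp before the annotated start of MIR319b, whose microRNA targets TCP transcription factor genes, on the same strand. XLOC_006656 (558 nt) lay 544 bp before MIR406 on the same strand. XLOC_014102 (384 nt) ran towards MIR158a, 268 bp away, and started 264 bp from ASD1, an arabinofuranosidase gene. XLOC_003153 (861 nt) started 1480 bp from MIR171c in the divergent orientation and ended 214 bp before ATG8C, an autophagy gene. Loci beside MIR319b and MIR406 had no newer gene on their strand, and the same held for XLOC_014102 and XLOC_003153.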

How the data were processed

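What the authors deposited is 1 merged set of transcript models, which gives the position of every exon, its strand and a class code, and no per-library value. Per the submitters' processing notes, CASAVA 1.8, TopHat2 and Cufflinks were used on TAIR10, and for TopHat2 and Cufflinks the version was not given in the sources used here. Exon positions are in bp, 1-based.

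Loci were the class u transcripts of chromosomes 1 to 5 grouped by locus identifier. Gaps were counted to the nearest class = transcript on each side. Of 33265 annotated nuclear genes, 32811 were in the newer TAIR10.1 RefSeq annotation and 32807 overlapped it in position and strand, so TAIR10.1 sequence was read by the set's coordinates. Symbols, gene types and products came from RefSeq. A newer gene was assigned by the largest same-strand overlap with the locus. Matches to annotated transcripts were made with BLAST+ 2.17.0 (E-value of at most 1e-10), with matches at the same position left out. Other values were computed with Python 3.11.15 and the code was tested on simulated data. Figures show the same values.

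The members, the gene lists and the rules were chosen with earlier results of these data known. Loci were named as up to 5 each by isoforms, orientation and gap, distance, single-exon length, intron length, exon number and open reading frame, of which 1 divergent locus is not reported here. Loci and genes chosen after their values were seen are the aligned pairs, the family members, XLOC_029586, XLOC_028458, XLOC_005844, XLOC_007026, the snRNA relatives, the overlapping pairs, the added protein-coding genes with product names and the neighbours of microRNA genes. The exclusion of overlapping opposite-strand loci from matches between loci was likewise added after a first count. There were 0 columns of other series.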

Additional observations from a re-analysis of the deposited data

How the results depend on the processing

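No paired analysis was possible because the merged set holds no value per library, and leaving out a replicate was not possible for the same reason. Alternatives changed the exon numbers used, the neighbours counted, the coverage asked of newer genes, the frame length, the match length and the masked share. With spliced loci alone the convergent share was 23.2% (30.3% over all loci) and the same-strand downstream share 21.2% (11.4%). With protein-coding neighbours alone the median gap was 864 bp (617.5 bp). Asking a newer gene to cover at least 0.5 of the locus gave 42.8% (56.9%). A frame of 50 codons gave 42.1% (7.93% at 100 codons). A match over at least 0.5 of the spliced length gave 10.3% (27.9%), and a masked share of at least 0.2 gave 53.1% (4.14% at 0.5). These alternatives are stricter or looser by construction, and the cause of the orientation shift was not tested. With spliced loci alone the median gap was 776 bp, at the upper bound of its 95% order-statistic interval (528 to 776). The other alternatives run gave values within the main value's 95% interval. Alternatives added after the data were seen left out the 9 loci that share an identifier with another class, or took the orientation of loci outside same-strand newer genes alone. Depth, expression and genotype could not be assessed.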
